A study of Homo sapiens with 4 samples.

Results

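This account covers 10 of the 67062 genes in the count table: HOXA5, HOXA7, HOXA9 and HOXA10 of the HOXA cluster on chromosome 7, HOXB2, HOXB3 and HOXB4 of the HOXB cluster on chromosome 17, and the partner genes MEIS1, PBX2 and PBX3. They were chosen by name as part of the expression programme of NPM1-mutant leukaemia and found by matching Ensembl identifiers to symbols. All 10 had a row, and all 10 passed the filter on low counts that left 15918 genes for testing.

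The cells were OCI-AML3, a permanent line from a human acute myeloid leukaemia in which NPM1 carries the mutation that moves its protein to the cytoplasm (NPM1c+). Cultures received retrovirus from the pMSCV-PIG vector, in which an RNA polymerase II promoter drives the long noncoding RNA LONA and a PGK promoter drives puromycin resistance and, through an internal ribosome entry site, GFP (PIG-LONA). Control cultures received the vector with no insert (PIG-EMPTY), and cells of both groups were sorted for GFP. Each virus was used in 2 transductions done separately, which gave 2 libraries per group and 4 in all, so the spread between libraries is that between transductions of 1 line. Both groups carry the NPM1 mutation and the GFP cassette, and the only difference the labels give is the LONA insert.

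HOX genes encode transcription factors that bind DNA through a homeodomain and set positional identity in the embryo. In blood, the HOXA genes and the front genes of HOXB are active in stem and progenitor cells and are normally shut down as myeloid cells mature. MEIS and PBX proteins belong to the TALE class of homeodomain proteins, bind DNA together with HOX proteins and raise the selectivity of the complex. Leukaemias with mutant NPM1 keep HOXA, HOXB and MEIS1 expressed, and HOXA9 with MEIS1 is a well known transforming pair.

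The genes encode related versions of the domain that reads DNA. The 39 bases below encode the core of the recognition helix of the homeodomain in 6 of the genes, read on the coding strand 5′ to 3′ from GENCODE 29 transcripts (GRCh38), with 1 codon in capitals: the codon for the residue that differs between the HOX and the TALE classes. They are shown because that codon differs between the HOX and the TALE genes printed here. Similar stretches also bear on whether reads can be given to 1 gene.
HOXA5: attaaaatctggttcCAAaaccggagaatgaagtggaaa
HOXA10: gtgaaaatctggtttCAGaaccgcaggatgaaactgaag
HOXB2: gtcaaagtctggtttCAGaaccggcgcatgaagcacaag
MEIS1: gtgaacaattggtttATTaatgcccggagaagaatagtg
PBX2: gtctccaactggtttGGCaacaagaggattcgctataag
PBX3: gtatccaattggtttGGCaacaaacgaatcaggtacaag
HOXA10 and HOXB2 were identical at 31 of the 39 bases, with a longest unbroken run of 16, and HOXA10 and HOXA5 at 29. PBX2 and PBX3 matched at 30 bases, HOXA10 and PBX3 at 19, and HOXA10 and MEIS1 at 22. MEIS1 matched PBX2 at 18 bases, PBX3 at 20, HOXA5 at 14 and HOXB2 at 17. Over the whole stretch MEIS1 was thus nearer to the PBX genes than to HOXA5 and HOXB2, but not nearer than to HOXA10. In HOXA10 the stretch lies at chr7:27171956-27171994 on the minus strand and in PBX2 at chr6:32187357-32187395, also on the minus strand, each within 1 exon. In MEIS1 it spans 2 exons on the plus strand of chromosome 2.

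Despite this likeness, few longer stretches were common to the genes. Over all transcripts of GENCODE 29, 0 of the 50-base words of HOXA5, HOXA7, HOXB2, MEIS1 and PBX3 occurred in a transcript of another gene. For HOXA9 and HOXA10 the shared words, 12.8% and 8.41%, all belonged to genes of the same locus, mainly a readthrough gene over both that had a count of 0 in every library. That 0 does not show that HOXA9 and HOXA10 kept the reads of the shared parts, since such reads may have been given to no gene. HOXB3 and HOXB4 overlap in part, with 25 words in common. Counting any other gene, 5.52% and 12.4% of their words were shared, nearly all within the locus. The genes concerned include HOXB6 for HOXB3 and a sense intronic gene for HOXB4. That intronic gene had 17 and 28 reads in the controls and 21 and 33 in PIG-LONA. PBX2 was the exception, with 26.2% of its words shared with any other gene. Its pseudogene PBX2P1 on chromosome 3 held 13.5% of its words, and the other shared words lay in a noncoding gene of its own locus. The row of PBX2P1 held 41 and 43 reads in the controls (replicates 1 and 2) and 36 and 62 in PIG-LONA. Reads in shared parts may have been dropped or split, so the level of PBX2 is the least certain of the well expressed genes in this respect. HOXA7 has another limit, since 62.5% of its exon bases lie opposite exons of the antisense gene HOXA-AS3, which had 10 and 9 reads in the controls and 0 and 4 in PIG-LONA. HOXA9 and HOXA10 have 13.9% and 16.4% of their exon bases opposite antisense HOXA10-AS. That gene had 506 and 487 reads in the controls and 486 and 534 in PIG-LONA. In HOXB2, HOXB3 and MEIS1 the antisense share was 3.72%, 5.27% and 4.19%.

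Total counts ran from 29819572 to 38358442 per library. The level of LONA itself is not analysed here, since the gene names used do not include it. Of 10 genes of myeloid identity, all but KIT were tested, and the defining genes of other lineages were close to absent: CD3E, CD3D, MS4A1, HBB, HBA1 and EPCAM had 0 counts in all 4 libraries. PECAM1, which monocytes also express, had 790 to 1072. Summed over the 10 myeloid genes, the level was 1974 and 1937 CPM (counts scaled to a common library total) for the controls against 1913 and 1871 CPM with LONA. Of the 9 tested, 0 rose and 2 fell, or 22.2% called against 6.44% of all tested genes. The median standard error (SE) of the 9 was 0.0395, against 0.0751 for all tested genes, so smaller changes could pass among them. Those that fell were ANPEP (log2 fold change -0.57 ± 0.06, SE) and SPI1 (-0.13 ± 0.04). The call of SPI1 was lost with either control library left out (-0.15 without replicate 1 and -0.12 without replicate 2). The 14 markers of other cell types summed to 33.01 and 33.8 CPM for the controls and 27.1 and 27.2 CPM with LONA. Nearly all of each sum was PECAM1, at 32.3 and 33 CPM in the controls and 26.4 and 26.2 CPM with LONA. PECAM1 (-0.31 ± 0.06) fell, 1 of 2 tested. The part of these differences in the results was not tested. In bulk RNA, fewer cells expressing a gene and less RNA per cell cannot be told apart.

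HOXA10 was the highest of the 10 genes. Levels are given as CPM, the count divided by the TMM-scaled library total in units of 1e+06, and between genes as CPM per kilobase of annotated exon. HOXA10 stood at 50.1 ± 0.85 CPM per kilobase (mean ± SD, n = 4), with a range of 49.0 to 50.9. HOXA9 followed at 18.7 ± 0.99 and PBX2 at 17.5 ± 1.33, and the highest PBX2 library, 18.8, exceeded the lowest HOXA9 library, 17.4. HOXB2 (11.4 ± 0.38) and HOXB3 (10.6 ± 0.43) also lay side by side, with ranges that overlapped near 11.0. Next came PBX3 at 5.88 ± 0.57. HOXA5 (4.04 ± 0.53), HOXB4 (3.91 ± 0.15) and MEIS1 (3.88 ± 0.08) could not be ordered by their spread. HOXA7 was the lowest at 0.287 ± 0.06, far below its neighbours in the cluster. Divided by the longest coding transcript instead, a length chosen after seeing the data, the first 3 kept their order, HOXB2 and HOXB3 changed places, and MEIS1 moved to 8.30, above HOXA5 and HOXB4. The exons of MEIS1 add up to 10934 bases, and its longest coding transcript has 5111.

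**Figure D1:**
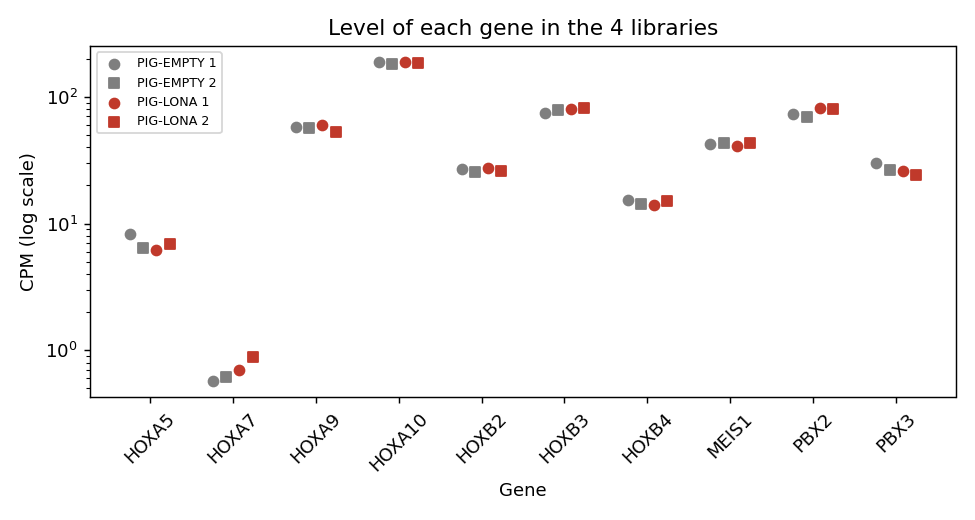
CPM on a log axis of the 10 genes in each library, with PIG-EMPTY in grey and PIG-LONA in red, and circles for replicate 1 and squares for replicate 2. The genes span from under 1 CPM for HOXA7 to 188.6 CPM for HOXA10, and the 4 points of a gene lie close together next to that span.

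Within its cluster the expressed part was the back end. HOXA9, HOXA10, HOXA11 and HOXA13 had 18.7, 50.1, 36.2 and 29.8 CPM per kilobase on average, whereas HOXA2, HOXA3 and HOXA4, near the front of the cluster, had 0.144 to 0.860. HOXA5 and HOXA6 stood between, at 4.04 and 1.90. In the HOXB cluster the level was spread more evenly, from HOXB2 at 11.4 to HOXB9 at 3.80, with HOXB5 at 0.717 and HOXB1, which was not tested, at 1 count in all libraries together. The antisense gene HOXB-AS3 at 28.2 and HOTTIP, the noncoding gene beside HOXA13, at 10.5 were the highest noncoding genes of the 2 clusters. Of all 39 HOX genes, 11 had 0 counts in every library, and no HOXC or HOXD gene had more than 14 counts in any library. Summed per kilobase, the HOXA cluster took 73.0% to 73.8% of all HOX transcripts and the HOXB cluster 26.1% to 26.8%. The 7 HOX genes examined here took 50.1% and 49.6% of the total in the controls against 51.4% and 52.1% with LONA, and HOXA11 and HOXA13 together with HOXB8 held most of the remainder.

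**Figure D2:**
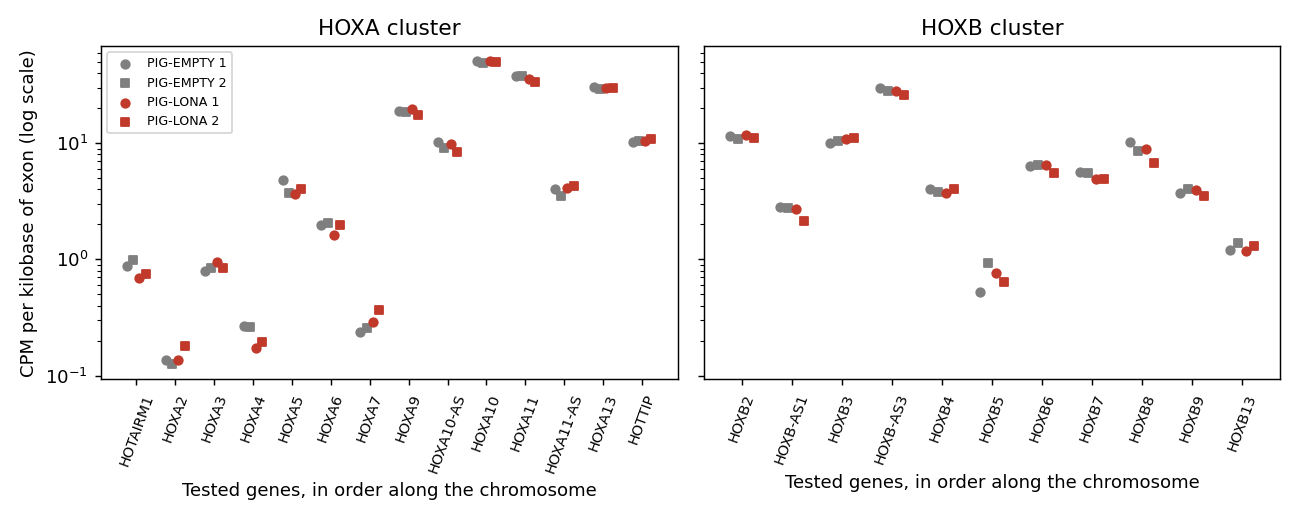
CPM per kilobase of exon on a log axis for tested genes of the HOXA and HOXB clusters, ordered by position on the chromosome, 1 point per library (grey PIG-EMPTY, red PIG-LONA). Levels of the coding genes in HOXA are high from HOXA9 onward and lower before it, and the points of both groups overlie each other for most genes. The noncoding HOXA11-AS, past HOXA9, is at 3.985 on average, below HOXA5 at 4.045.

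The question of the comparison was which of these genes changed when LONA was expressed. Of the 10 genes, 1 rose, 0 fell and 9 did not pass the test (quasi-likelihood test in edgeR, threshold 0.05 on p adjusted by Benjamini-Hochberg over all tested genes). Among all tested genes, 2.93% were called higher and 3.51% lower, or 6.44% in either direction. The rise was PBX2, and at an unadjusted p under 0.05 PBX3 joined it on the lower side, 2 of 10 against 18.7% of all tested genes. The median log2 fold change of the 10 was 0.01, and their median size without regard to sign was 0.06, against 0.09 for all tested genes. In 4 of the 10 the groups did not overlap, against 48.0% of all tested genes. With 1 call in 10 genes, the share called is near that of all genes.

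**Figure D3:**
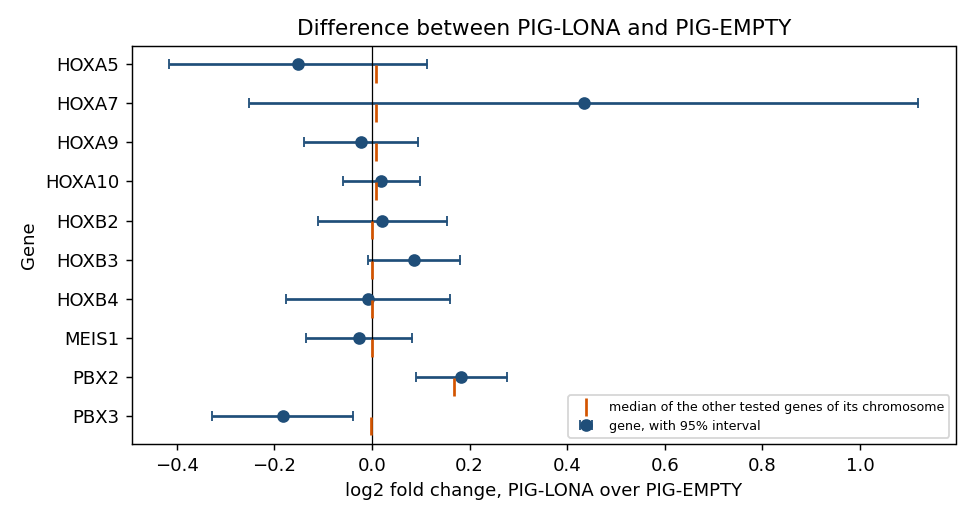
Log2 fold change of PIG-LONA over PIG-EMPTY for the 10 genes, with 95% intervals from the edgeR fit, and an orange tick at the median of the other tested genes of the same chromosome. PBX2 sits beside the tick of chromosome 6 at 0.17, and the intervals of the HOX genes and MEIS1 all include 0.

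HOXA9 (chr7:27162435-27175180, minus strand), which encodes the leukaemogenic partner of MEIS1, had 57.5 and 56.4 CPM in PIG-EMPTY and 59.8 and 52.6 CPM in PIG-LONA. The PIG-LONA libraries lay on either side of both controls, so the groups overlapped. The log2 fold change was -0.02 ± 0.06 (SE; edgeR adjusted p = 0.891), and the 95% interval of the fold ran from 0.909 to 1.07. HOXA10 (chr7:27170591-27180261, minus strand), a paralog that blocks myeloid maturation when overexpressed, had 187.7 and 181.6 CPM in PIG-EMPTY and 188.6 and 185.5 CPM in PIG-LONA. The log2 fold change was 0.02 ± 0.04 (edgeR adjusted p = 0.858), with an interval of the fold from 0.959 to 1.07, the narrowest of the 10. These intervals, which are not adjusted for the number of genes and rest on 2 libraries per group, do not reach a 1.2-fold change in either direction.

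HOXA5 and HOXA7 were measured less precisely. HOXA5 (chr7:27141052-27143668, minus strand), in the middle of the cluster, had 8.19 and 6.40 CPM in PIG-EMPTY and 6.18 and 6.84 CPM in PIG-LONA. PIG-EMPTY replicate 1 was the high library and the other three lay together. The log2 fold change of -0.15 ± 0.13 (edgeR adjusted p = 0.584) became 0.03 without that library. HOXA7 (chr7:27153716-27157936, minus strand) had 17 and 20 reads in the controls against 21 and 34 reads with LONA, which is 0.571, 0.616, 0.702 and 0.884 CPM. Both PIG-LONA libraries were above both controls, but the log2 fold change of 0.43 ± 0.33 (edgeR adjusted p = 0.533) had an interval of the fold from 0.840 to 2.17. The value was 0.24 without PIG-LONA replicate 2.

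The 3 HOXB genes neighbour each other at the front of their cluster, between chr17:48540894-48544989 (HOXB2) and chr17:48575513-48580111 (HOXB4), and none passed the test. HOXB2 had 27.2 and 25.6 CPM in PIG-EMPTY and 27.5 and 26.1 CPM in PIG-LONA, with overlapping groups and a log2 fold change of 0.02 ± 0.06. HOXB4, known for expanding blood stem cells when overexpressed, had 15.3 and 14.3 CPM in PIG-EMPTY and 14.1 and 15.1 CPM in PIG-LONA, and its log2 fold change was -0.01 ± 0.08. HOXB3 (chr17:48548870-48604912, minus strand) had the largest difference of the 3. It had 74.7 and 78.6 CPM in PIG-EMPTY and 80.5 and 82.2 CPM in PIG-LONA, so both PIG-LONA libraries were higher, and PIG-LONA replicate 1 was nearer to PIG-EMPTY replicate 2 than the controls were to each other. Its log2 fold change was 0.09 ± 0.04 and did not pass the test (edgeR adjusted p = 0.321), with an interval of the fold from 0.995 to 1.13, and it was 0.05 without PIG-EMPTY replicate 1.

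MEIS1 (chr2:66433452-66573869, plus strand), the cofactor that together with HOXA9 sustains leukaemic self-renewal, had 42.7 and 43.0 CPM in PIG-EMPTY and 41.1 and 42.9 CPM in PIG-LONA. PIG-LONA replicate 1 was the lowest and the other libraries lay close together. The log2 fold change was -0.03 ± 0.05 (edgeR adjusted p = 0.861), with an interval of the fold from 0.911 to 1.06. The ratio of HOXA9 to MEIS1 counts within a library, which does not depend on scaling, was 0.43 and 0.39 for the controls on the log2 scale, and for the PIG-LONA libraries it was 0.54 and 0.29. The PIG-LONA values again enclosed the controls.

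PBX2 rose. This broadly expressed PBX gene, in the major histocompatibility region of chromosome 6 (chr6:32184741-32190186, minus strand), had 72.5 and 69.6 CPM in PIG-EMPTY and 81.8 and 79.6 CPM in PIG-LONA. Both PIG-LONA libraries were above both controls, and the difference of the means, 71.1 ± 2.09 against 80.7 ± 1.53 CPM (mean ± SD, n = 2), exceeded the spread in either group. The log2 fold change was 0.18 ± 0.05 (edgeR adjusted p = 0.0149), which is 1.14-fold with a 95% interval from 1.06 to 1.21. The other tested genes of chromosome 6 had a median of 0.17, and of the 799 tested genes there, PBX2 included, 28.3% were called higher. Around PBX2, the 67 tested genes within 1 megabase had a median of 0.17, with 17 called higher and 3 lower, and PBX2 stood at the 55.6th percentile of its chromosome. With the median shift of chromosome 6 taken out of each library, the log2 fold change of PBX2 was 0.02 (edgeR adjusted p = 0.902). This step takes the same shift from every gene of the chromosome, so it restates the median above and is no separate test. The call was also lost without PIG-EMPTY replicate 1 (0.21, edgeR adjusted p = 0.0536), without PIG-EMPTY replicate 2 (0.15, edgeR adjusted p = 0.329), in the DESeq2 Wald test (0.19, adjusted p = 0.0752) and when all genes with a read were tested (0.19, edgeR adjusted p = 0.0791). The pseudogene PBX2P1 had a log2 fold change of 0.09 ± 0.25, and of -0.16 without PIG-LONA replicate 2. A noncoding gene on the same strand covers 15.1% of the exon bases of PBX2 and had a count of 0 in every library. Reads in the overlap may have been dropped, so this 0 does not show that PBX2 kept its reads there.

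PBX3 (chr9:125747345-125967377, plus strand), the family member most often named as the HOXA9 partner in leukaemia, pointed the other way. It had 30.2 and 26.4 CPM in PIG-EMPTY and 25.8 and 24.1 CPM in PIG-LONA. Both PIG-LONA libraries were below both controls, but PIG-EMPTY replicate 2 was closer to the PIG-LONA libraries than to the other control. The log2 fold change of -0.18 ± 0.07 did not pass the test (edgeR adjusted p = 0.140), and the interval of the fold ran from 0.797 to 0.974. PBX3 was at -0.23 without PIG-LONA replicate 1 and at -0.08 without PIG-EMPTY replicate 1. The other tested genes of chromosome 9 had a median of 0.00 to 2 decimals, and the 15 neighbours of PBX3 within 1 megabase had a median of -0.03 with 0 called in either direction. The log2 ratio of PBX2 to PBX3 counts was 1.26 and 1.40 for the controls, and for the PIG-LONA libraries it was 1.66 and 1.72. This pair was singled out after its values were seen, so the ratio is a description, with no test.

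**Figure D4:**
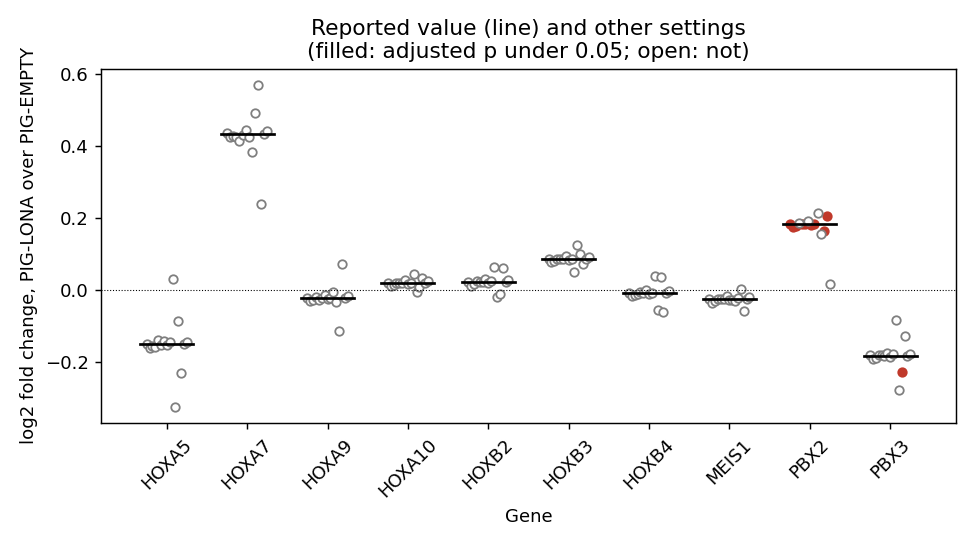
Log2 fold change of each gene as reported (black line) and under the other settings (points), which are scalings, tests, filters, the replicate block, left-out libraries and the 2 treatments of chromosome 6. Filled points passed an adjusted p of 0.05, which happened for PBX2 in 9 of 14 settings and for PBX3 in 1 of 15. The filled PBX3 point is the fit without PIG-LONA replicate 1, where the spread came from the PIG-EMPTY libraries alone. The lowest PBX2 point at 0.02 is the one with the chromosome 6 shift removed.

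The surrounding genes of the clusters gave no calls either. Of 14 other HOXA and HOXB genes, 13 were tested, 0 rose and 0 fell (3 at an unadjusted p under 0.05 in the edgeR test, and 10 of 13 below 0), with a median log2 fold change of -0.09. HOXA11, the abundant neighbour of HOXA10, had the smallest p, with 87.3 ± 0.25 CPM in PIG-EMPTY and 79.9 ± 2.69 CPM in PIG-LONA (log2 fold change -0.13 ± 0.04, edgeR adjusted p = 0.0939). It was at -0.16 without PIG-LONA replicate 1 and at -0.09 without PIG-LONA replicate 2. Of 10 noncoding genes of the clusters, 6 were tested and 0 were called (0 at an unadjusted p under 0.05 in the edgeR test). HOXB-AS3 had a log2 fold change of -0.10 ± 0.05 and HOXA11-AS of 0.16 ± 0.09. HOXB-AS3 was at -0.17 without PIG-LONA replicate 1, at -0.04 without PIG-LONA replicate 2 and at -0.07 without PIG-EMPTY replicate 1. HOXA11-AS was at 0.26 without PIG-EMPTY replicate 1 and at 0.06 without PIG-EMPTY replicate 2.

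Of 13 genes, which were other TALE genes and PBXIP1, a gene for a protein that binds PBX, 10 were tested and 0 were called (2 at an unadjusted p under 0.05 in the edgeR test), with a median of -0.04. PBX4, MEIS2 and MEIS3 were hardly expressed, with at most 90 counts in any library, so MEIS1 carried the MEIS counts. The Iroquois gene IRX3, often active in leukaemias with high HOXA, was abundant at 341 ± 9.04 CPM in PIG-EMPTY and 314 ± 20.2 CPM in PIG-LONA (-0.12 ± 0.04, edgeR adjusted p = 0.0841). In the edgeR test it was called lower with upper-quartile scaling (adjusted p = 0.0409) and with the replicate block (adjusted p = 0.0415). It was at -0.19 without PIG-LONA replicate 1 and at -0.06 without PIG-LONA replicate 2. IRX5 stood at -0.13 ± 0.06 (edgeR adjusted p = 0.226) and was called lower when PIG-EMPTY replicate 2 (-0.26) or PIG-LONA replicate 1 (-0.16) was left out, but had 0.0033 without PIG-EMPTY replicate 1.

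Upstream of the clusters, NPM1, whose mutant form marks these cells, had 1769 ± 2.60 CPM in PIG-EMPTY and 1791 ± 31.0 CPM in PIG-LONA (log2 fold change 0.02 ± 0.03, edgeR adjusted p = 0.834). Reads of the mutant and the normal allele are not separated in these counts. Of 30 regulators of HOX transcription, 27 were tested, 4 rose and 0 fell, with a median of 0.05. That is 14.8% called, against 6.44% of all tested genes. The median standard error of this list was 0.0413, against 0.0751 for all tested genes, so smaller changes could pass in it. Of the 27, 2 were below 0, and 8 had an unadjusted p under 0.05 in the edgeR test, against 18.7% of all tested genes. The rises were the Polycomb methyltransferase gene EZH2 (0.33 ± 0.04), AFF1 (0.21 ± 0.04) of the elongation machinery, the Polycomb ligase gene RING1 (0.21 ± 0.05) and MLLT10 (0.19 ± 0.05), a DOT1L cofactor. RING1 lies on chromosome 6 and was at 0.05 with that chromosome's shift removed. The caudal genes CDX1 and CDX4, which activate HOX genes in the embryo, had 0 counts, and CDX2 had at most 3. KMT2A, MEN1 and DOT1L, known for keeping HOXA genes active in leukaemia, had log2 fold changes of 0.11 ± 0.05, 0.07 ± 0.04 and 0.10 ± 0.04 and did not pass the test (edgeR adjusted p = 0.226, 0.358 and 0.142). These 3 were chosen once their values were known. Without PIG-LONA replicate 1, KMT2A was at 0.19 and DOT1L at 0.13. KMT2A was at 0.03 without PIG-LONA replicate 2 and at 0.06 without PIG-EMPTY replicate 1. The call of MLLT10 was lost when PIG-EMPTY replicate 1 (0.20), PIG-EMPTY replicate 2 (0.16) or PIG-LONA replicate 2 (0.14) was left out, and with library totals, the Wald test or no filter. Leaving out PIG-EMPTY replicate 2 also ended the calls of AFF1 (0.20) and RING1 (0.16), and RING1 was not called in the Wald test or without the filter either.

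Downstream, 17 described targets of HOXA9 and MEIS1 were all tested, and 5 rose, 2 fell and 10 did not pass, with a median of 0.05. That is 41.2% called, against 6.44% of all tested genes, in a list chosen with earlier results of these data known. The median standard error of this list was 0.0521, against 0.0751 for all tested genes, so smaller changes could pass in it. FLT3, the receptor kinase gene often used as a readout of MEIS1 activity, rose from 37.2 ± 0.33 to 50.5 ± 1.51 CPM (0.44 ± 0.05, edgeR adjusted p = 2.04e-05). The survival gene BCL2 was at 0.20 ± 0.04, and MEF2C (-0.22 ± 0.05) and ID2 (-0.22 ± 0.05), both transcriptional regulators, fell. ERG (0.48 ± 0.11), PIM1 (0.45 ± 0.12) and CDK6 (0.17 ± 0.04) completed the rises, and like MYB they were chosen once their values were known. PIM1 and MYB lie on chromosome 6. PIM1 was at 0.28 and not called with that chromosome's shift removed. MYB, the progenitor factor gene, was at 0.05 ± 0.04 (edgeR adjusted p = 0.544), and at -0.12 (edgeR adjusted p = 0.0581) with the shift removed. The call of BCL2 was lost when PIG-EMPTY replicate 1 (0.19) or PIG-EMPTY replicate 2 (0.21) was left out, those of ID2 (-0.19), ERG (0.34) and CDK6 (0.14) without PIG-EMPTY replicate 1, and that of PIM1 without PIG-EMPTY replicate 2 (0.37). ID2, ERG, PIM1 and CDK6 were called neither in the Wald test nor without the filter, and MEF2C was not called without the filter. CDK6 was at 0.09 without PIG-LONA replicate 2 and MEF2C at -0.14 without PIG-LONA replicate 1.

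**Figure D5:**
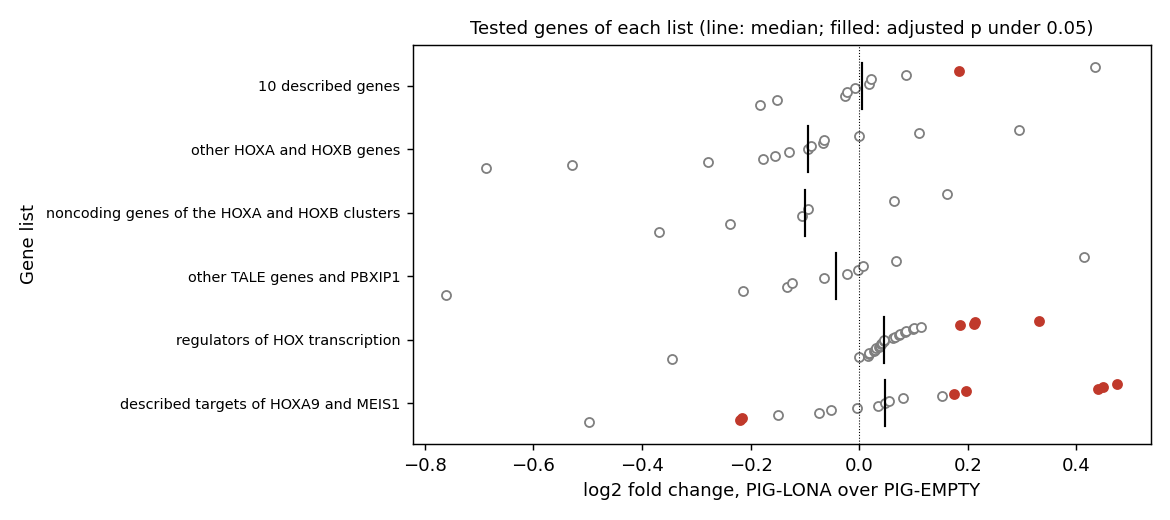
Log2 fold change of every tested gene of the 10 described genes and of 5 lists around them, 1 point per gene, filled where the adjusted p was under 0.05, with a line at the median of each list. Filled points occur for PBX2, for 4 regulators and for 7 targets, and none in the lists of other HOXA and HOXB genes, of noncoding genes and of other TALE genes with PBXIP1.

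The genes whose pattern over the 4 libraries was nearest to that of PBX2, the member with the smallest p, were PSAT1 on chromosome 9, ABT1 on chromosome 6 and ENSG00000260404 on chromosome 4. The distances between their centred log2 levels and those of PBX2 were 0.0097, 0.010 and 0.011, out of 15917 genes compared. Their log2 fold changes were 0.19 ± 0.04, 0.19 ± 0.05 and 0.17 ± 0.06. PSAT1 and ABT1 passed the test (edgeR adjusted p = 0.00679 and 0.026), and ENSG00000260404 did not (edgeR adjusted p = 0.0676). Without the filter on low counts, PSAT1 and ABT1 were not called (edgeR adjusted p = 0.0576 and 0.114), nor was ABT1 in the DESeq2 Wald test (adjusted p = 0.144). With 1 library left out at a time, PSAT1 ranged from 0.158 to 0.224, ABT1 from 0.151 to 0.22 and ENSG00000260404 from 0.149 to 0.201. The calls of PSAT1 (0.158) and ABT1 (0.151) were lost without PIG-EMPTY replicate 2. That of ABT1 (0.22) was also lost without PIG-EMPTY replicate 1. With the shift of chromosome 6 removed, ABT1 was at 0.02 (edgeR adjusted p = 0.904), as PBX2 was. With only 4 libraries, close patterns are found for any gene, and the likeness is a description.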

How the data were processed

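Poly(A) RNA was sequenced from directional libraries of the 4 cultures, per the labels' protocols. The authors deposited raw read counts per Ensembl gene, 1 column per library. Build hg38, HTSeq, STAR 2.5 and FastQC 0.11.4 are named in the submitters' processing notes. Which annotation was counted, and with which strand setting, is not given in the sources used here, so reads of overlapping antisense genes cannot be assigned with certainty. Symbols were found for 60402 of 67062 rows. Exon lengths, coordinates, overlaps and sequences came from GENCODE 29 on GRCh38, the assembly of hg38. Shared words were 50 bases long.

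Genes were filtered with filterByExpr (minimum count 10, minimum total 15), scaled by TMM and tested with edgeR 4.0.16 (glmQLFit, legacy form off, and glmQLFTest, two-sided) in R 4.3.3, with Benjamini-Hochberg adjustment over 15918 genes. The standard error is the size of the log2 fold change over the square root of F. Intervals are 95%. Alternatives used DESeq2 1.42.0, limma 3.58.1 and the settings of the closing section. Chi-square per gene was 1.76 between PIG-EMPTY and 4.67 between PIG-LONA libraries, above counting noise, so all were kept as separate samples. On simulated counts for this comparison (15687 genes tested), the test recovered 47.1% of 1.2-fold changes, 75.0% of 1.5-fold changes, 76.2% of 2-fold changes and 100% of 4-fold changes, and 3.31% of its calls were false.

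The genes and lists were chosen with earlier results of these data known. Named were the 10 genes, NPM1, up to 4 called genes with the smallest p per list (or, with none called, 2 as values only) and the 3 genes nearest to the member with the smallest p. Some genes and sequences that these rules would name are not reported here.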

Additional observations from a re-analysis of the deposited data

How the results depend on the processing

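The 10 genes gave 1 call higher and 0 lower. The count of higher calls was 0 with the DESeq2 Wald test, without the low-count filter, with the chromosome 6 shift removed, without chromosome 6 genes (which leaves out PBX2) and at adjusted p under 0.01. It ranged from 0 to 1 with 1 library left out at a time, and the count of lower calls from 0 to 1. The replicate block left both counts as they were (1 and 0); the correlation of deviations of same-numbered libraries was 0.0231 over 15918 genes and the labels do not say that numbers pair cultures. For all tested genes, 467 were called higher and 558 lower in the reported test, 219 and 254 with DESeq2, 140 and 194 without the filter, 228 and 300 at adjusted p under 0.01, and 498 and 603 with the replicate block. Higher calls were 232 with the chromosome 6 shift removed and 219 without chromosome 6 genes. With each library left out, higher calls ran from 152 to 1211 and lower calls from 282 to 1101, the highest of both without PIG-LONA replicate 1. Leaving a library out leaves 1 sample in an arm, which is then assumed to vary like the others. Without a PIG-LONA library the spread came from the PIG-EMPTY libraries alone, which varied less (chi-square per gene 1.76 against 4.67). Calls made in those fits therefore say little about a gene.

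Some values changed sign between settings. None passed the test with the reversed sign, and the cause was not tested. With 1 library left out at a time, HOXA5 ranged from -0.325 to 0.0312, HOXA9 from -0.113 to 0.0728, HOXA10 from -0.0047 to 0.0435, HOXB2 from -0.0207 (and -0.0124 without PIG-LONA replicate 1) to 0.0647, HOXB4 from -0.060 to 0.0375 (and 0.0351 without PIG-LONA replicate 1), MEIS1 from -0.0579 to 0.0028 and IRX5 from -0.259 to 0.0033. The positive IRX5 value was the one without PIG-EMPTY replicate 1. HOXB4 was at 0.0010 without the filter. MYB moved to -0.118 with the chromosome 6 shift removed, and PBX2P1 ranged from -0.164 to 0.256 with 1 library left out. SPI1 was called in 10 of 15 settings. HOXA7 had no value under the filter of CPM of at least 1 in 2 libraries. Depth limits HOXA7 most, with 17 to 34 counts per library.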
